A study of Mus musculus with 8 samples.

Results

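Transcripts of 8 sarcomere genes that adult limb muscle normally holds at a low level were followed in the tibialis anterior (TA) muscle of WT and Klotho-null (KL-/-) mice: *Myh3*, *Myh8*, *Myh6*, *Myh7b*, *Myh13*, *Myl4*, *Myl10* and *Tnnt2*. The 8 genes were taken by symbol as the embryonic, neonatal, cardiac-type and extraocular isoforms, and 8 of 8 were present among the 12551 genes of the count table. RNA came from whole TA muscles of male littermates 7 weeks of age, 4 with the wild-type and 4 with the homozygous null *Kl* genotype, bred on a mixed background. The null allele is carried by every cell of the animal, so the muscle was not the only tissue without Klotho. Each library came from 1 mouse and 100 ng of RNA. The sample records name total RNA, whereas the methods describe mRNA sequencing.

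Sarcomeres are built from thick filaments of myosin heavy and light chains and thin filaments whose troponin complex senses calcium, and most of these proteins are encoded by families of isoform genes. *Myh3* encodes the embryonic and *Myh8* the neonatal (perinatal) myosin heavy chain, which precede the adult fast isoforms in developing limb muscle. *Myh6* encodes the alpha-cardiac heavy chain, *Myh7b* the slow-tonic type, and *Myh13* the extraocular type of the fast eye and laryngeal muscles. *Myl4* encodes the embryonic and atrial essential light chain, *Myl10* a regulatory light chain, and *Tnnt2* cardiac troponin T, which fetal skeletal muscle also makes. In adult limb muscle, embryonic and neonatal myosins are known from regenerating and denervated fibers, and *Myh6*, *Myh7b*, *Myh3* and *Myh8* are also known from the intrafusal fibers of muscle spindles.

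Counts on genes summed to between 20860262 and 29273758 per library. On the CPM scale (counts scaled to a common library size, with TMM factors), 3 counts corresponded to 0.102 to 0.144 CPM, and the lowest member value in any library was 1.31 CPM, so each member lay above that floor in all 8 libraries and none entered the table through KL-/- samples alone. *Kl* itself is not among the genes of the table, so no value here checks the genotype labels. KL-/- replicate 2 stood apart from the other KL-/- libraries, with a chi-square per gene of 60.3 to 84.4 against them, where the other pairs of a genotype gave 9.91 to 45.9. The batch label of KL-/- replicate 3 gives a later date than that of the remaining 7, and since it is the only library of its batch, batch and mouse cannot be told apart. Of the markers of the labelled tissue, the 11 fast-fiber genes, such as *Myh4*, *Mylpf* and *Ckm*, were all measured and together took 145881 to 219921 CPM.

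*Myh3*, *Myh8* and *Myh13* lie in the myosin cluster of chromosome 11, in the order *Myh3*, *Myh2*, *Myh1*, *Myh4*, *Myh8* and *Myh13*, over 293 kb of mm10 on the plus strand. *Myh3* spans 67078300 to 67102291, *Myh8* 67277124 to 67308633 and *Myh13* 67327103 to 67371502. *Myl4* lies on the same chromosome at 104550663 to 104587219. *Myh6* (chromosome 14, 54941921 to 54966607, minus strand) sits 4080 bases from *Myh7*, the slow and beta-cardiac heavy chain gene. *Tnnt2* (chromosome 1, 135836334 to 135852268) sits 25.3 kb from *Tnni1*, which encodes slow troponin I. *Myh7b* lies on chromosome 2 (155611243 to 155634307) and *Myl10* on chromosome 5 (136693146 to 136701094). All values count reads on the exons of these genes.

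Promoter sequences from RefSeq (GRCm38.p6, the assembly of mm10) run from 250 bases before to 50 bases after the annotated start. They are shown for 4 members that were higher in KL-/- muscle and for *Myh4*, the dominant adult isoform beside *Myh8*. The members shown are the pair of developmental heavy chains and those with a TATAAA or MCAT match. Capitals in *Myh8* (chr11:67276874-67277173, plus strand) and *Myh4* (chr11:67237562-67237861, plus strand) mark the longest run of bases that the pair shares. Capitals in *Myh3* (chr11:67078050-67078349, plus strand) mark a TATA box (TATAAA), in *Tnnt2* (chr1:135836084-135836383, plus strand) an MCAT motif (CATTCC), and in *Myh6* (chr14:54966558-54966857, minus strand) an MCAT motif on the opposite strand and then a TATA box.
Myh8: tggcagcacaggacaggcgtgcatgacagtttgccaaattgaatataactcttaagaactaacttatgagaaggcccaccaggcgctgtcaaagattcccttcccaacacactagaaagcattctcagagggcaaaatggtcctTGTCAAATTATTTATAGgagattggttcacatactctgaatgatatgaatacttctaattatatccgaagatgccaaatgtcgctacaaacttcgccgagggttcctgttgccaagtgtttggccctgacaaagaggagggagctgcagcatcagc
Myh4: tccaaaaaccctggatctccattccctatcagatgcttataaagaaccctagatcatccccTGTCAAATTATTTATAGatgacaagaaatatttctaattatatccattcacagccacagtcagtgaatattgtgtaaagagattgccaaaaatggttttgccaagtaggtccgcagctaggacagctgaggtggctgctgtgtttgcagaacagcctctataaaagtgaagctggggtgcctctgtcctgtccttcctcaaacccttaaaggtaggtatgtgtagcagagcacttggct
Myh3: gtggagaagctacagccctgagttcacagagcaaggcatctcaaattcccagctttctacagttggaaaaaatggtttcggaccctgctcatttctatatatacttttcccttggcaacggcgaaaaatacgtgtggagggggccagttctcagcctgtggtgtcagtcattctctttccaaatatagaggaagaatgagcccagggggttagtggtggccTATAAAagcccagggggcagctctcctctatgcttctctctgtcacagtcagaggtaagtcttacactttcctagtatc
Myh6: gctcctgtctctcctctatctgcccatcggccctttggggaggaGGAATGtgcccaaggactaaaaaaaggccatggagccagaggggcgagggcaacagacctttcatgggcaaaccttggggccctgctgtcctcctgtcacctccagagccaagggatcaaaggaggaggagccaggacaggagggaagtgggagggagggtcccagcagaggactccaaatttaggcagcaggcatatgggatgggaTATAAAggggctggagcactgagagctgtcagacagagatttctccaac
Tnnt2: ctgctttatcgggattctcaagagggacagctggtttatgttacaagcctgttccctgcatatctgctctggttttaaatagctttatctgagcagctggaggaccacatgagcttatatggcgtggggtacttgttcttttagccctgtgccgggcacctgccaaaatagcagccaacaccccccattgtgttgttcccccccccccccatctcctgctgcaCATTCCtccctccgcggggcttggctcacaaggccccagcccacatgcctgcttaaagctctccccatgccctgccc

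The run of 17 bases shared by *Myh8* and *Myh4* began 106 bases before the start of *Myh8* and 189 bases before that of *Myh4*, and of 32851 RefSeq promoter windows only these 2 held it on either strand. It includes a match to the MEF2 motif, which 3.19% of all windows held and, among the 8 members, 1 (*Myh8*). The second longest run shared by any pair among the members and *Myh4* was 11 bases. The E box (CANNTG on either strand), the site type bound by MyoD family factors, was found in 7 of 8 member windows, where 72.3% of all windows held one. TATAAA on the sense strand was found in *Myh3* and *Myh6* (8.32% of all windows), CATTCC on either strand in *Myh6* and *Tnnt2* (14.7%), the CArG box on either strand in *Myh13* (1.63%) and TCAGGTT, a MEF3 core, on either strand in none (4.07%). A match is a description of letters and not a site in use. For genes with several windows, the first listed was used.

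Of the 8 genes, 7 rose in KL-/- muscle with a false discovery rate (FDR) under 0.05 over all genes tested, where 7.35% of the 12551 genes did. In 7 of 8 every KL-/- sample also lay above every WT sample, against 10.2% of all genes (9.47% lay wholly below and 19.7% did not overlap in either direction), and *Myl4* was the exception in both counts. Log2 fold changes of KL-/- over WT ran from 0.61 in *Myl4* to 1.49 in *Myh3* with a median of 1.19, and the median of all genes was −0.016. By log2 fold change the members took places 54 to 416 of 12551, counted from the largest increase. None of the members was lower with an FDR under 0.05, and 0 were lower at an unadjusted p under 0.05 or by DESeq2 or limma-voom. Over all genes, edgeR's quasi-likelihood test gave 6.67% lower with an FDR under 0.05 and 16.4% lower at an unadjusted p under 0.05. Because the study had named these transcripts as raised on the same 8 libraries, the counts are not independent evidence of their direction. The study also assayed selected transcripts by qRT-PCR, with primers listed for *Myh3*, *Myh6*, *Myh8*, *Myl4* and *Tnnt2*. It reports that qRT-PCR bore out the changes of key transcripts. Those assays were not analysed here. All 8 were weakly expressed, between an average log2 CPM of 2.10 and 3.62. In that range 3.48% of 2641 genes were higher with an FDR under 0.05. Scaling by library totals alone moved the median of all genes to −0.13, and relative to that median the members lay between 0.62 and 1.51.

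**Figure D1:**
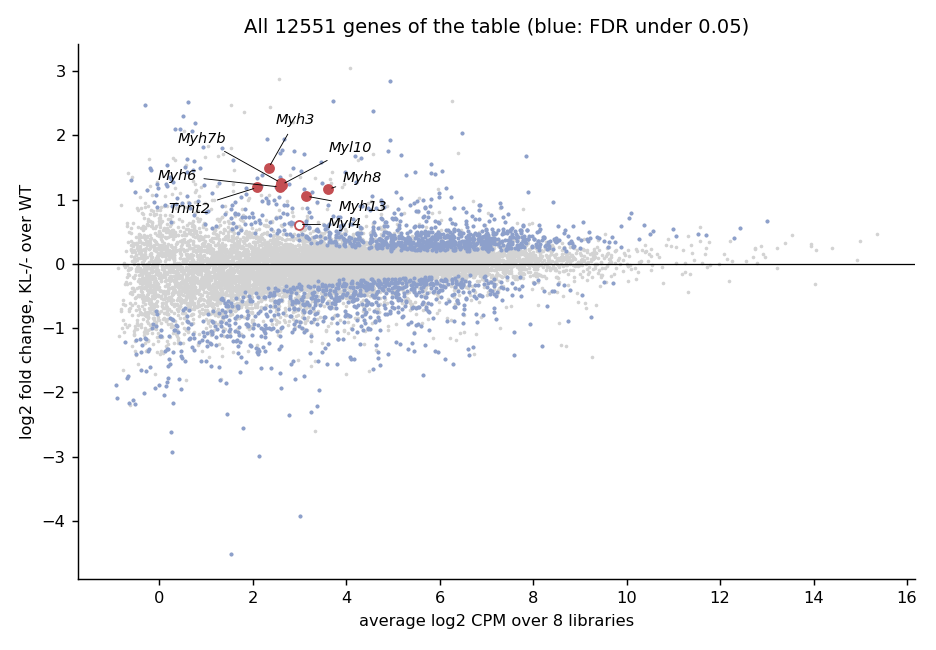
Log2 fold change of KL-/- over WT against the average log2 CPM for each of the 12551 genes, with genes at an FDR under 0.05 in blue. The 8 members are circles, filled where the FDR was under 0.05, and lie on the left with log2 fold changes of 0.61 (*Myl4*, open) to 1.49 (*Myh3*).

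*Myh8*, the neonatal heavy chain, had the closest replicates of the 8 genes. It was at 7.96, 8.33, 7.47 and 6.42 CPM in WT replicates 1 to 4 and at 16.9, 16.7, 15.5 and 18.3 CPM in KL-/- replicates 1 to 4. The lowest KL-/- mouse lay 7.17 CPM above the highest WT mouse. The mean rose from 7.54 ± 0.828 to 16.8 ± 1.16 CPM (SD, n = 4), which is 2.24-fold with a 95% confidence interval of 1.91 to 2.61 (FDR = 0.00129). By p-value it was the 5th of 12551 genes, and it passed in 8 of 8 fits with 1 mouse left out.

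*Myh3*, the embryonic heavy chain, rose most and varied most among KL-/- mice. WT replicates 1 to 4 were at 1.63, 2.59, 3.09 and 3.08 CPM, and KL-/- replicates 1 to 4 at 9.07, 3.91, 11.3 and 5.05 CPM. KL-/- replicates 1 and 3 thus stood well above replicates 2 and 4, and replicate 2 lay 0.824 CPM above the highest WT mouse. The coefficient of variation among KL-/- mice was 46.9%, against 6.88% for *Myh8*. The log2 fold change was 1.49 (standard error 0.34, FDR = 0.0231), 2.82-fold, and its 95% interval on the log2 scale was 0.72 to 2.26. The FDR was 0.0553 without KL-/- replicate 3, rose above 0.05 in 5 of the 8 fits with 1 mouse left out, up to 0.0608, and passed without KL-/- replicate 2.

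*Myh6*, the alpha-cardiac heavy chain, was at 2.61, 3.70, 3.97 and 4.02 CPM in WT replicates 1 to 4. In KL-/- replicates 1 to 4 it was at 7.25, 7.87, 9.16 and 8.56 CPM, and the groups were 3.24 CPM apart at their closest. The log2 fold change was 1.20 (standard error 0.15, FDR = 0.00289). *Myh7b*, the slow-tonic heavy chain, was at 1.92, 3.65, 3.58 and 4.84 CPM in WT mice and at 8.96, 7.49, 9.16 and 8.10 CPM in KL-/- replicates 1 to 4. Its WT mice spread more widely than its KL-/- mice, with coefficients of variation of 34.3% and 9.20%, and the groups did not overlap. *Myh7b* rose 2.40-fold, with an interval of 1.70 to 3.38 (FDR = 0.00863).

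*Myh13*, the extraocular heavy chain, was at 3.92, 5.60, 6.41 and 6.81 CPM in WT replicates 1 to 4 and at 9.87, 11.8, 14.1 and 11.6 CPM in KL-/- replicates 1 to 4. WT replicate 1 and KL-/- replicate 1 were the lowest of their genotypes. The increase was 2.07-fold with an interval of 1.58 to 2.72 (FDR = 0.00738).

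The light chains differed from each other. *Myl10*, a regulatory light chain, was at 2.16, 4.81, 3.62 and 3.91 CPM in WT replicates 1 to 4 and at 8.33, 7.68, 9.78 and 8.18 CPM in KL-/- replicates 1 to 4. Its groups lay 2.87 CPM apart and the increase was 2.35-fold, with an interval of 1.72 to 3.20 (FDR = 0.00708). *Myl4*, the embryonic and atrial essential light chain, was at 5.27, 5.50, 5.07 and 8.89 CPM in WT mice and at 9.59, 10.9, 8.91 and 8.56 CPM in KL-/- replicates 1 to 4. WT replicate 4 lay inside the KL-/- range, above KL-/- replicate 4. The log2 fold change was 0.61 with an interval of 0.20 to 1.02 and did not pass the threshold (FDR = 0.0541). It passed with DESeq2 (FDR = 0.0140), the likelihood ratio test (FDR = 0.0221) and limma-voom (FDR = 0.0425). Without WT replicate 4 it was 0.84 (FDR = 0.00793), and in the other 7 fits with 1 mouse left out it did not pass. Over the whole table the likelihood ratio test called 2124 genes, and the quasi-likelihood test 1759. The study, which names edgeR but not the test, also reports 2124 genes at an FDR under 0.05.

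*Tnnt2*, cardiac troponin T, was at 1.31, 2.96, 2.90 and 3.05 CPM in WT replicates 1 to 4 and at 5.27, 6.68, 6.92 and 4.56 CPM in KL-/- replicates 1 to 4. WT replicate 1 fell far below the other WT mice, and the lowest KL-/- mouse lay 1.51 CPM above the highest WT mouse. *Tnnt2* rose 2.28-fold, with an interval of 1.55 to 3.34 (FDR = 0.0160), and passed in 8 of 8 fits with 1 mouse left out.

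**Figure D2:**
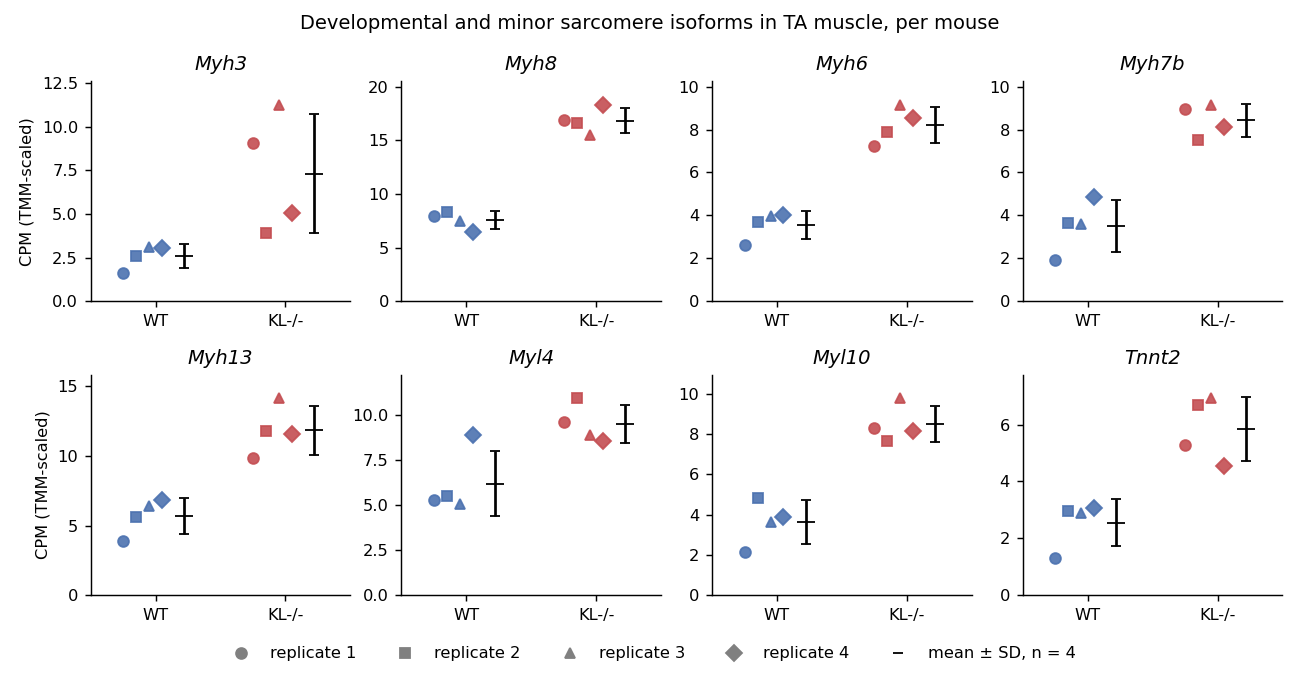
TMM-scaled CPM of the 8 genes in each mouse, WT in blue and KL-/- in red, with replicate numbers by marker shape and the mean ± SD (n = 4) in black, each panel on its own axis from 0. The genotypes are apart in each panel except *Myl4*, where WT replicate 4 at 8.89 CPM lies among the KL-/- mice, and *Myh3* has the widest KL-/- spread, 3.91 to 11.3 CPM.

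Across members, the same mice tended to stand at the ends of the range. WT replicate 1 was the lowest WT sample in 6 of 8 genes, *Myh8* and *Myl4* being the exceptions, and WT replicate 4 the highest in 5. KL-/- replicate 3 was the highest KL-/- sample in 6 of 8 genes but the lowest for *Myh8*. It is the library with the other batch date. Within the batch that held both genotypes, with that library left out, 6 of 8 members were higher with an FDR under 0.05, against 3.25% of all genes. *Myh3* and *Myl4* were the members that did not pass there, and the other 6 had log2 fold changes of 0.96 (*Myh13*) to 1.22 (*Myh7b*). Without KL-/- replicate 2, the library that stood apart, 7 of 8 were higher, against 12.1% of all genes.

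Among all genes, the profile nearest to that of *Myh6* over the 8 libraries was that of *Myh13*, with Pearson's r of 0.99 on log2 CPM, followed by *Sox10* and *Zc3h6* at 0.98 each. These points fall into the 2 genotypes and share library depth. With each genotype's mean removed, *Myh13* was second for *Myh6* (0.97, or 0.92 without WT replicate 1), behind *Dcbld1* (0.99) and ahead of *Depdc7* (0.96). That pair was the closest among the members, and other pairs were looser or opposed. *Myh8* had r of −0.73 to −0.19 with the 7 other members within genotypes, and −0.75 to 0.17 without WT replicate 1. The 10 pairs among *Myh6*, *Myh7b*, *Myh13*, *Myl10* and *Tnnt2*, a grouping made after the values were seen, had r of 0.74 to 0.97, and of 0.066 to 0.92 without that replicate. By the same measures *Myh3* was closest to *Hnrnpa3* (0.98), *Itpr3* (0.97) and *Cytl1* (0.96), and within genotypes to *Gngt2*, *Mrpl40* and *Commd5* (0.97 to 0.99). *Myh8* was closest to *Txn1*, *Rps7* and *Mir3064* (0.98 to 0.99), and within genotypes to *Kcne1l*, *Zbtb34* and *2010320M18Rik* (0.97 to 0.99). Each was picked as the highest value over all other genes of the table from 8 points, so these are descriptions only.

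Levels between genes were compared per kilobase of exon (CPM per kb). In WT muscle *Myl4* was the most abundant member at 7.00 ± 2.06 CPM per kb (SD, n = 4), and no other member reached its lowest WT sample on this scale. *Myl10* followed at 3.56 ± 1.08 and *Tnnt2* at 2.04 ± 0.666, and these neighbors overlapped between mice. *Myh8* was at 1.23 ± 0.135 and *Myh13* at 0.977 ± 0.220 CPM per kb, also overlapping. *Myh6*, *Myh7b* and *Myh3* were the lowest at 0.588 ± 0.108, 0.571 ± 0.196 and 0.434 ± 0.114 CPM per kb and did not separate from each other. In KL-/- muscle the same first 5 genes kept their places, at 10.8 ± 1.18 for *Myl4*, 8.34 ± 0.886 for *Myl10*, 4.68 ± 0.904 for *Tnnt2*, 2.74 ± 0.188 for *Myh8* and 2.04 ± 0.301 for *Myh13*, and here each of them lay apart from the next. *Myh7b* and *Myh6* exchanged places with overlapping values, and *Myh3* stayed last. With coding length in place of exon length, *Myl4* (10.6) and *Myl10* (8.17 CPM per kb) overlapped in WT muscle, and in KL-/- muscle *Myl10* came before *Myl4*, again with overlap.

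Members were traces beside *Myh4* but not beside the slow chain *Myh7*. In WT muscle *Myh7* was at 0.942 ± 0.689 CPM per kb (SD, n = 4). On the CPM scale *Myh4*, the type IIb heavy chain, was at 35287 ± 2124 in WT and 48545 ± 9565 in KL-/- muscle. Per length, the 5 member heavy chains made up 0.0318% to 0.0463% of the transcripts of 9 sarcomeric heavy chain genes in WT and 0.0641% to 0.0865% in KL-/- muscle, without overlap. *Myh8* alone took 0.0116% to 0.0151% in WT and 0.0220% to 0.0290% in KL-/- muscle.

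**Figure D3:**
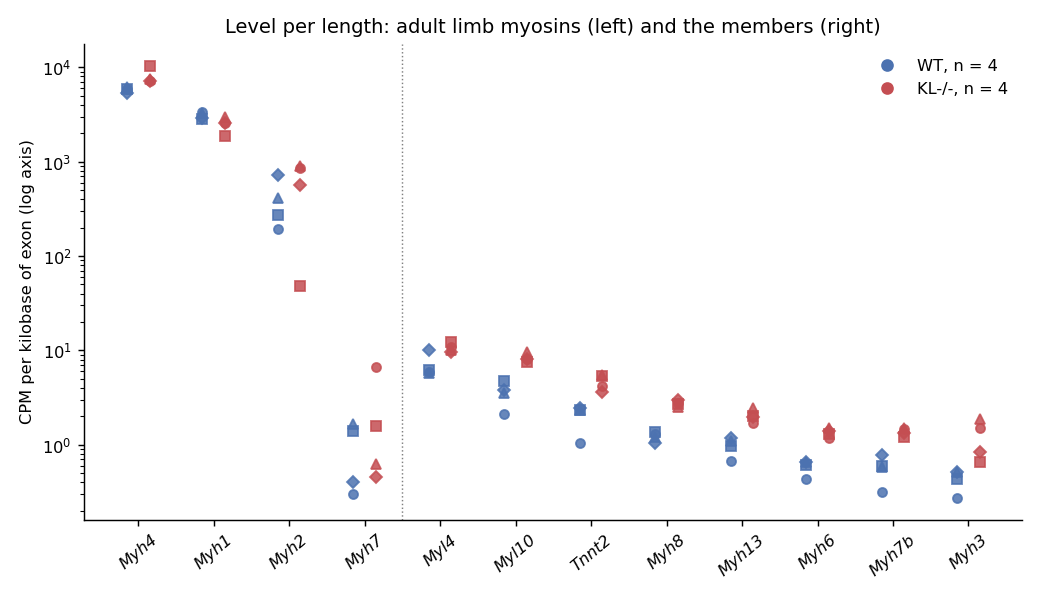
Level per length (CPM per kilobase of exon, log axis) of 4 adult limb heavy chains left of the dotted line and of the 8 members right of it, one marker per mouse, WT in blue and KL-/- in red. *Myl4* leads the members at a WT mean of 7.00 and *Myh3* is lowest at 0.434, while *Myh7* spans both genotypes.

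Of the 5 neighboring adult genes at the members' loci, 1 passed in edgeR's quasi-likelihood test, and the call changed with the method for *Myh4* and *Tnni1*. On chromosome 11, *Myh2* (type IIa), *Myh1* (type IIx) and *Myh4* lie between *Myh3* and *Myh8*, and had log2 fold changes of 0.57 (interval −1.02 to 2.15), −0.31 (interval −0.69 to 0.079) and 0.46 (interval 0.00036 to 0.92), with FDRs of 0.613, 0.246 and 0.155. *Myh4*, which the study had named as raised on these samples, was nevertheless higher in each KL-/- mouse than in any WT mouse. It passed with DESeq2 (FDR = 0.00317), the likelihood ratio test (FDR = 0.0169) and limma-voom (FDR = 0.0442). The study also reported a higher percentage of type IIb fibers in KL-/- TA muscle by immunolabeling, and lists qRT-PCR primers for *Myh4*. Neither was analysed here. *Myh7*, beside *Myh6*, had a log2 fold change of 1.34 with an interval of −0.56 to 3.25 (FDR = 0.301). It was at 40.9 CPM in KL-/- replicate 1 and at 2.75 to 9.54 CPM in the other KL-/- mice, and without that replicate its log2 fold change was −0.099. *Tnni1*, beside *Tnnt2*, was the neighbor that passed (log2 fold change 1.05, FDR = 0.0401), with overlap between genotypes. It passed in 1 of 8 fits with 1 mouse left out, the one without KL-/- replicate 4, and did not pass with limma-voom (FDR = 0.0615). The differences between members and neighbors were not tested.

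**Figure D4:**
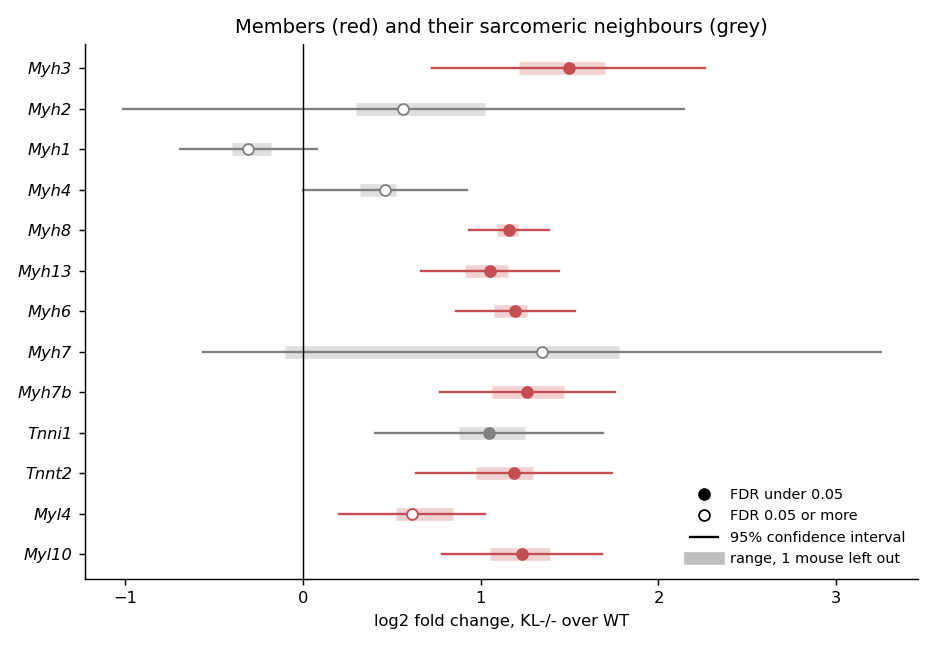
Log2 fold change of KL-/- over WT for the members (red) and their sarcomeric neighbors (grey), in chromosomal order within each cluster, with 95% confidence intervals as lines and the range over 8 fits with 1 mouse left out as bands. Filled circles had an FDR under 0.05. *Myh8* has the narrowest band, 1.09 to 1.21, and *Myh7* the widest, −0.099 to 1.78.

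Close copies could share reads with a member, and the read length and the handling of reads with several matches are not given in the sources used here. Coding sequences (GENCODE M21) were therefore compared in windows of 100 bases. In *Myh8*, 7.00% of windows were identical to a window of another sarcomeric heavy chain gene and 22.6% were within 2 mismatches, with *Myh1*, *Myh2* and *Myh4* as the nearest. In *Myh6* 12.0% were identical to *Myh7* and 31.4% within 2 mismatches. Against any other heavy chain gene, the shares were 3.60% and 8.92% in *Myh13* and 1.19% and 6.41% in *Myh3*. Members also matched each other, with 68 windows of *Myh3* and 122 of *Myh8* identical to *Myh13*. *Myh7b*, *Myl4*, *Myl10* and *Tnnt2* had 0 windows within 2 mismatches of the relatives compared, the nearest being 5, 14, 15 and 22 mismatches away.

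Members and their close copies were also set side by side in single mice. KL-/- replicate 1 had the highest *Myh7* of all libraries, 40.9 CPM, and the lowest *Myh6* of the KL-/- mice, 7.25 CPM. KL-/- replicate 2 had *Myh2* at 292 CPM, against 3445 to 5441 CPM in the other KL-/- mice, and *Myh8* at 16.7 CPM, inside the KL-/- range. For each 10000 reads on *Myh4*, *Myh8* had 1.98 to 2.33 reads in WT and 2.65 to 4.25 in KL-/- muscle, without overlap. On the same scale *Myh3* (0.461 to 0.951 in WT and 0.623 to 2.49 in KL-/-) and *Myh13* (1.11 to 2.10 and 1.88 to 3.12) overlapped, with KL-/- replicate 2, whose *Myh4* was the highest, as their lowest KL-/- mouse. On the other strand, annotated exons overlap 114 of 6079 exon bases of *Myh6*, 37 of 6132 of *Myh7b* (*Trpc4ap*) and 3 of 883 of *Myl4*, and whether counting used strand is not given in the sources used here.

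**Figure D5:**
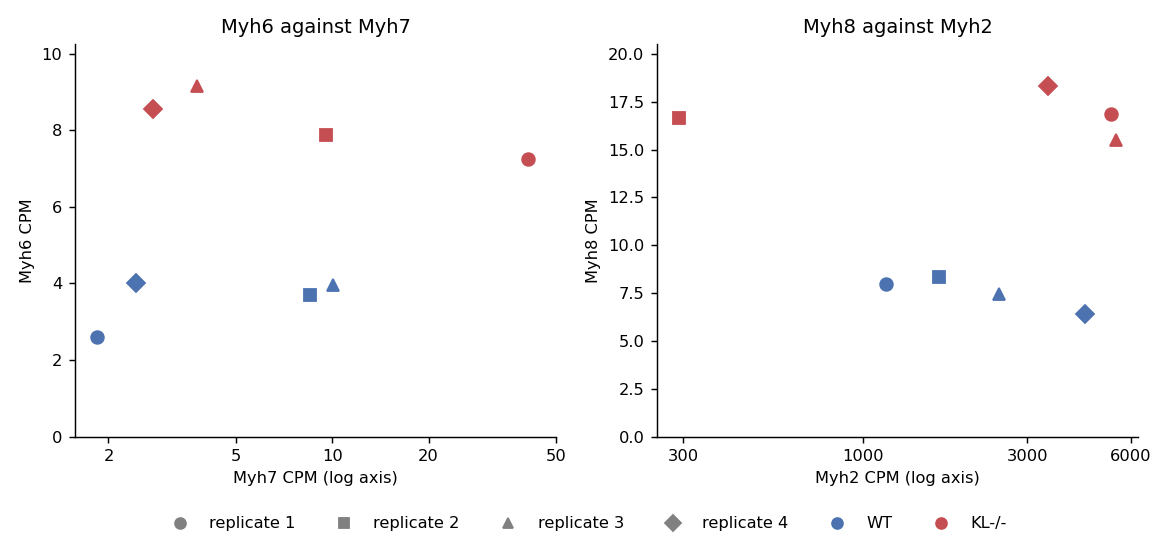
*Myh6* against *Myh7* (left) and *Myh8* against *Myh2* (right), in CPM per mouse with the x axes on a log scale, WT in blue and KL-/- in red, replicate numbers by marker shape. *Myh6* stays between 7.25 and 9.16 CPM in KL-/- mice while *Myh7* runs from 2.75 to 40.9, and *Myh8* stays between 15.5 and 18.3 CPM while *Myh2* runs from 292 to 5441.

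Other sarcomere genes were read from fixed lists. Of 34 measured adult sarcomere genes, 6 were higher and 1 was lower with an FDR under 0.05, where 7.35% and 6.67% of all genes were. Their median log2 fold change was 0.30. The higher count was 2 to 9 with 1 mouse left out. *Actn3*, the fast-fiber alpha-actinin of the Z disc, rose 1.59-fold (FDR = 0.0103), and the M-band genes *Myom1* and *Myom2* rose 1.46-fold and 1.35-fold. *Lmod3*, a leiomodin that nucleates thin filament actin, was the gene that fell, by 0.40 on the log2 scale (FDR = 0.00583). The slow troponin genes *Tnnt1*, *Tnni1* and *Tnnc1* were the other 3 that rose, and the study had named *Tnni1* and *Tnnc1* on these samples. Of 14 measured other fetal, cardiac or atypical sarcomere genes, 0 passed in edgeR's quasi-likelihood test, 3 were higher at an unadjusted p under 0.05, and DESeq2 called 2. The lowest p-values there belonged to *Ankrd1* (log2 fold change 0.78, FDR = 0.0805), *Lmod1* (0.59), *Nrap* (0.44) and *Myl9* (0.27). *Actc1*, the cardiac and fetal alpha-actin, had a log2 fold change of −0.026 with an interval of −2.14 to 2.08.

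Among 37 measured regulators of sarcomere isoform genes, 5 were higher and 3 lower, where 7.35% and 6.67% of all genes were. Their median log2 fold change was −0.053. *Nfatc2*, a calcineurin-dependent factor, fell by 0.56 on the log2 scale (FDR = 0.00847), without overlap between genotypes. *Eya4*, of the Eya family of transcription cofactors, had a log2 fold change of 0.35 (FDR = 0.0204) and *Nfix*, a factor of the switch from embryonic to fetal muscle genes, of 0.28 (FDR = 0.0329). Scaled by library totals, 0 regulators were higher and 5 lower, and with 1 mouse left out 0 to 4 were higher and 2 or 3 lower. *Myog*, the myogenic factor that rises on denervation, had a mean of 5.16 ± 2.31 CPM in WT mice, against 6.42 ± 3.63 CPM in KL-/- mice (FDR = 0.637).

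Among 22 measured genes known to rise on denervation, 5 were higher and 1 lower, where 7.35% and 6.67% of all genes were. At an unadjusted p under 0.05 in edgeR's quasi-likelihood test, 8 were higher and 2 lower. *Chrng*, also on the list, was not in the table. *Sln*, the SERCA inhibitor sarcolipin, rose from 0.589 ± 0.234 to 2.69 ± 1.13 CPM (FDR = 0.00760). The acetylcholine receptor genes *Chrna1* and *Chrne* rose 1.83-fold and 1.66-fold. The study had named both on these samples and lists qRT-PCR primers for both. *Gadd45a* rose 1.72-fold (FDR = 0.0237) but did not pass in 4 of 8 fits with 1 mouse left out, those without WT replicates 2 or 3 or KL-/- replicates 3 or 4 (FDR up to 0.0679). *Cdkn1a*, which encodes the cell cycle inhibitor p21, was 1.79-fold higher (FDR = 0.0457) with overlap between genotypes, and of the 8 fits it passed in the 1 without KL-/- replicate 2 (FDR up to 0.122 in the others). *Cpeb1*, a factor of cytoplasmic polyadenylation, was the gene that passed as lower, by 1.25 on the log2 scale (FDR = 0.00295). The lowest log2 fold change of the list, −1.45, belonged to a gene that did not pass. DESeq2, the likelihood ratio test and limma-voom each called 2 lower. With 1 mouse left out, 3 to 5 of the list were higher and 1 to 3 lower. The median of the list was 0.16.

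Markers of other cells were set beside the members, and in bulk tissue fewer cells of a type and less RNA per cell cannot be told apart. Of 12 cardiac muscle markers, 3 were in the table (*Myl4*, *Sln* and *Hcn4*), and *Nppa*, *Myl7*, *Tnni3*, *Mybpc3* and *Ryr2* were not. Of 10 measured markers of regenerating myogenic cells, 0 passed in edgeR's quasi-likelihood test and 1 was higher at an unadjusted p under 0.05, and the fusion genes *Mymk* and *Mymx* were not in the table. Of 10 slow-fiber markers, 3 were higher, and 5 were higher at an unadjusted p under 0.05 in edgeR's quasi-likelihood test. Their median log2 fold change was 0.85, with 8 of 10 positive. They summed to 254 to 434 CPM (WT) and to 299 to 524 CPM (KL-/-). Of 5 measured intrafusal fiber markers, 1 (*Etv5*) was higher, and 2 were higher at an unadjusted p under 0.05. Their median log2 fold change was 0.41, with sums of 19.2 to 30.5 CPM (WT) and of 30.0 to 44.3 CPM (KL-/-). Schwann cell markers summed to 52.7 to 93.8 CPM in WT mice and, without overlap, to 97.9 to 119 CPM in KL-/- mice. Of the 6, 3 were higher, and the median log2 fold change was 0.68. Leukocyte markers passed as lower in 2 of 6, fibroblast markers in 2 of 5 and endothelial markers in 1 of 3. At an unadjusted p under 0.05 in edgeR's quasi-likelihood test, these counts were 4, 5 and 2. In these lists 0 markers had a positive log2 fold change, and the medians were −0.95, −1.27 and −0.35. Sums overlapped between genotypes for leukocyte and fibroblast markers. Endothelial sums did not, at 324 to 492 CPM (WT) and 291 to 322 CPM (KL-/-). Of 6 smooth muscle markers 1 was higher. The part of these cell types in the members' rise was not tested.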

How the data were processed

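RNA from TA muscle of 4 WT and 4 KL-/- mice was sequenced. Alignment by the authors used STAR and the mm10 genome, dropping low-quality alignments, and the deposited values are raw counts per gene from featureCounts for expressed genes. The gene length in bases is the other deposited value used. Groups and replicate numbers came from the sample titles. All 12551 genes, which edgeR's default filter kept, were tested with edgeR 4.0.16 (R 4.3.3), with TMM factors, genotype as the only term, the quasi-likelihood test and Benjamini-Hochberg adjustment over all genes (FDR, threshold 0.05). Standard errors come from the test statistic and 95% intervals from its t distribution. CPM use library totals times TMM factors. Levels were divided by exon length.

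Alternatives were RLE factors, library totals, DESeq2 1.42.0, limma-voom (limma 3.58.1), the likelihood ratio test, no filter, at least 10 counts in every library, the replicate number as a block and each library left out, and, after seeing the data, edgeR's earlier quasi-likelihood form and coding lengths. The protein length alternative was not run. Fits were tested on simulated counts. The members and lists were chosen with earlier results of these data known. Named genes are the members, their sarcomeric neighbors, overlapping genes, the nearest profiles of *Myh3*, *Myh8* and *Myh6*, and per list the 4 lowest p-values or up to 6 passing genes. *Actc1*, *Myog*, *Tnnt1* and *Tnnc1* were named after their values were seen. Pairs of replicates with the same number were not from the same animal and did not deviate together. Reads and *Kl* were not analysed here. A gene that the naming rule covers is not reported here.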

Additional observations from a re-analysis of the deposited data

Results flagged for a closer look

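Values of 31 genes were searched within each genotype for a sample far from the other 3 (Dixon's test at the 95% level), and 7 of 62 groups were marked, where chance marks about 1 in 20. *Myl4* was at 8.89 CPM in WT replicate 4, against 5.50 CPM in the next WT sample. *Tnnt2* was at 1.31 CPM in WT replicate 1, against 2.90 CPM in the next. *Myh4* was at 62798 CPM in KL-/- replicate 2, against 45341 CPM in the next. *Myom1* was at 1953 CPM in KL-/- replicate 2, below 2525 CPM in the next. *Chrne* was at 8.21 CPM in WT replicate 4 and at 19.9 CPM in KL-/- replicate 4. *Gadd45a* was at 18.1 CPM in WT replicate 4, below 25.2 CPM in the next.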

How the results depend on the processing

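The number of members higher in KL-/- muscle was 7, and 6 to 8 under all alternatives, and 0 members were lower under any of them. Over 136 member fits, 126 kept direction and side of the threshold, 6 went above it, 4 (all *Myl4*: DESeq2, the likelihood ratio test, limma-voom and without WT replicate 4) came under it, and 0 changed direction. Among those kept, the fits with no filter only repeat the main fit, because the default filter had kept every gene. With the replicate number as a block, 6 members and 671 of all genes were called, and *Myh3* (FDR = 0.0510), *Tnni1* (0.0629), *Gadd45a* (0.0591) and *Cdkn1a* (0.112) did not pass. Same-numbered samples correlated in their deviations at −0.37 to 0.18, so the number marks no pairing. The count over all genes ranged from 762 to 2755 with 1 sample left out: 762 without KL-/- replicate 3, 778 without KL-/- replicate 4, 780 and 775 without WT replicates 2 and 3, and 2755 without KL-/- replicate 2. Among other named genes, *Myh7* turned to −0.099 without KL-/- replicate 1, and ranged up to 1.78 with another mouse left out. Of genes called over the whole table, 52.4% were higher with TMM factors and 18.8% with library totals. DESeq2 called 14 adult sarcomere genes higher, against 6. With the block, 2 adult sarcomere genes and 0 regulators were higher, against 6 and 5. The alternative using RefSeq protein lengths was not run. Members had 32 to 486 counts per library, which limits their precision, and the causes of these shifts were not tested.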
